A study of Mus musculus with 6 samples.

Results

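The genes described here encode the factors that start, extend and end protein synthesis in the cytoplasm, with the kinases, inhibitors and methyltransferases named after them. They were taken by name from the count table as the protein-coding genes whose symbols begin with Eif1 to Eif6, Eef1 or Eef2, with the release factor genes Etf1, Gspt1 and Gspt2, and without the targeted gene Eif5a and its paralogue Eif5a2. This gave 69 of the 54532 rows, of which 22046 are protein-coding. Of the 69, 67 had enough counts to be tested, among 14679 tested genes in all. The exceptions were Eif4ebp3, with 6, 1 and 3 counts in the WT libraries and 0, 1 and 0 in the libraries labelled eIF5A-KO, and Eif4e1b, with 1 count in WT replicate 1 and 0 counts in the other 5 libraries.

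Bulk RNA-seq was performed on cells labelled as primary myoblasts at day 2, cultured with FGF (10 ug/ml in the labels), in 3 WT libraries and 3 libraries labelled eIF5A-KO (called eIF5A-KO-labelled here). Per the series' design text, hind-limb muscle of 3-week-old mice was digested with dispase and collagenase, strained and put into culture, and RNA was taken after 2 days, with no sorting step described. The knockout mice of the study carry floxed eIF5A alleles and Pax7-CreERT2, and its myoblasts for translation profiling came from tamoxifen-induced knockout mice and WT littermates. For its adult mice the study names WT controls both as Pax7 CreERT2/+ and as Pax7+/+;eIF5A f/f. Which of these gave the WT myoblasts, and so whether these carried the recombinase, is not given in the sources used here. Pax7-CreERT2 directs the deletion at cells that express Pax7, and the descendants of such cells keep it whether or not they still express Pax7. Which cells of the culture carried it was not measured here. The study describes its bulk RNA-seq as triplicate experiments, without saying whether these used separate animals or cultures, so the p-values measure the spread between these libraries.

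Some facts of the libraries bear on all values below. Counts per library ranged from 16281216 to 17734551, and the biological coefficient of variation between replicates was 0.239. The targeted gene, Eif5a, did not separate the groups (log2 fold change 0.021, adjusted p = 0.993 in edgeR), with 1603, 986 and 1238 CPM (counts over TMM-scaled library size) in WT replicates 1 to 3 and 1364, 1459 and 1059 CPM in eIF5A-KO-labelled replicates 1 to 3. The counts are per gene and no exon-level values were used, and the study's own assays of eIF5A loss were not analysed here. Myogenic, fibroblast, endothelial, mural and macrophage marker lists were all detected, the myogenic list with Pax7 and Myod1 in every library, so transcripts typical of other cell types were present beside the myogenic ones. The summed level of the 8 myogenic markers ranged from 699.8 to 1803 CPM in WT and from 627 to 1194 CPM in the eIF5A-KO-labelled libraries, and 7 of the 8 had estimates below 0. Myog, which drives differentiation, had 14.4, 76.3 and 32.2 CPM in WT and 8.93, 5.09 and 2.10 CPM in the eIF5A-KO-labelled libraries (log2 fold change -2.91, unadjusted p = 0.00119, adjusted p = 0.362 in edgeR). Chrna1, an acetylcholine receptor subunit, and Pax7 followed at -1.62 and -1.49 (unadjusted p = 0.00262 and 0.00690, adjusted p = 0.396 and 0.484 in edgeR). All 5 mural markers had estimates above 0, their sum ranging from 176 to 229 CPM in WT and from 242 to 313 CPM in the eIF5A-KO-labelled libraries. Among them the smooth muscle myosin gene Myh11 passed the threshold (log2 fold change 1.51, adjusted p = 0.0486 in edgeR). That call was lost, with no gene passing, under DESeq2 size factors, library size alone, limma or a filter of 10 counts in every library. It was also lost when any library other than WT replicate 1 was left out. All 5 endothelial markers also had estimates above 0 (median 0.42), with sums of 856 to 1826 CPM in WT and 1488 to 2351 CPM in the eIF5A-KO-labelled libraries. Of the 6 fibroblast markers 2 had estimates above 0 and 4 below (median -0.12). Their sums were 1723 to 2436 CPM in WT and 1679 to 2228 CPM in the eIF5A-KO-labelled libraries. Among the 2 was Col1a1, a collagen gene, with a higher level in every eIF5A-KO-labelled library (log2 fold change 0.72, unadjusted p = 0.0106, adjusted p = 0.504 in edgeR). Of the 6 macrophage markers 4 had estimates above 0 (median 0.31), with sums of 59.7 to 129.9 CPM in WT and 65.0 to 160.2 CPM in the eIF5A-KO-labelled libraries, and Cd68, a lysosomal protein gene of macrophages, had 18.6, 33.4 and 20.3 CPM in WT and 60.8, 43.6 and 24.9 CPM in the eIF5A-KO-labelled libraries (log2 fold change 0.83, unadjusted p = 0.0338, adjusted p = 0.675 in edgeR). These 6 genes were named after their values were seen, and the part of cell makeup in the levels of the translation factors was not tested. In such cultures, fewer cells of a type and less RNA per cell cannot be told apart.

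Translation of most messages begins when the eIF4F complex binds the cap at the 5′ end. The small ribosomal subunit is then brought in with eIF1, eIF1A, eIF3, eIF5 and the ternary complex of eIF2, GTP and initiator tRNA, and moves to the start codon. After the large subunit joins with the help of eIF5B, eEF1A delivers each aminoacyl-tRNA and eEF2 moves the ribosome along by a codon, until eRF1 and eRF3, the products of Etf1 and the Gspt genes, release the finished chain. Muscle stem cells are known to hold protein synthesis low through phosphorylation of eIF2 while quiescent, and to raise it on activation. eIF5A, the product of the targeted gene, helps ribosomes over difficult stretches and acts in the same elongation and termination steps as the eEF and release factors.

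The members took 2.44% to 2.70% of all counts in each library. Eef1a1 alone made up 25.3% to 29.8% of the members' counts, with the highest share in WT replicate 1 and the lowest in eIF5A-KO-labelled replicate 1. Compared per length as FPKM (read counts divided by gene length and made comparable between libraries by the authors), Eef1a1 had a mean of 2862 over the 6 libraries and was the 7th most abundant of all genes. Eef2 followed at 1012 FPKM, then Eef1g, a subunit of the exchange factor that reloads eEF1A, at 541. The most abundant initiation factors were Eif1, which guards start codon choice, at 369.8 FPKM and Eif4a1, the helicase of eIF4F, at 289 FPKM. At the other end stood Eif4e1b at 0.00470, Eif4ebp3 at 0.150 and the methyltransferase Eef1akmt3 at 0.300 FPKM. The gene length in these values is the union of all annotated exons, which lowers the FPKM of a gene with long, rarely used exons.

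**Figure D1:**
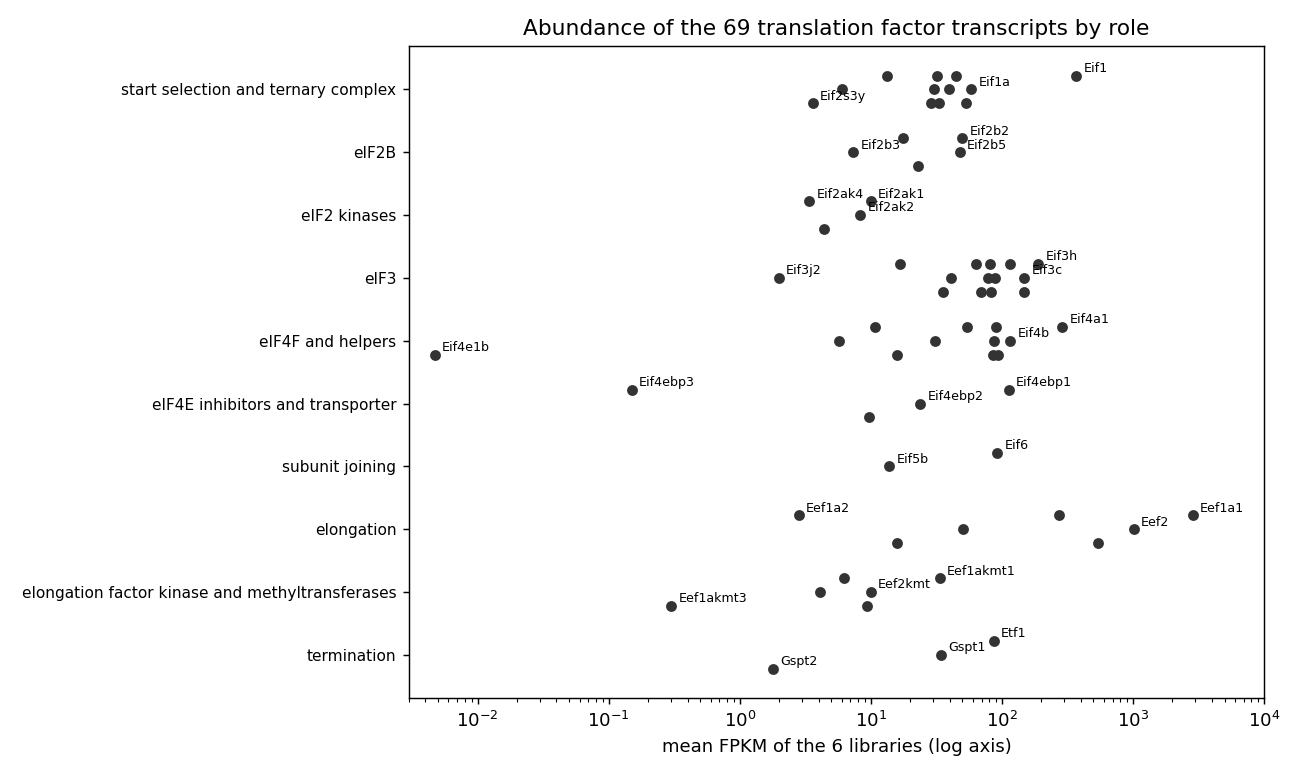
Mean FPKM of each of the 69 members over the 6 libraries on a log axis, with a point for each gene in the row of its role and the most and least abundant genes of each row named. The elongation factors span FPKM values from 2.83 for Eef1a2 to 2862 for Eef1a1.

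The question put to these genes was whether their transcripts differ between the eIF5A-KO-labelled libraries and WT. No member passed the threshold of an adjusted p under 0.05 in the quasi-likelihood test of edgeR, against 0.0204% of all tested genes (3 of 14679), and none passed with DESeq2, limma-voom or limma on FPKM. Even before adjustment, 0 of the 67 tested members had p under 0.05 in edgeR, against 6.76% of all tested genes (2.74% for those above WT and 4.02% for those below it). The same count was 0 with DESeq2, limma-voom and limma on FPKM. The smallest adjusted p among the members was 0.809.

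Estimates lay close to 0 on both sides. The median log2 fold change of the 67 members was 0.018, with 35 estimates above and 32 below 0, and that of all tested genes was -0.011. Scaled by library size only, the members' median was -0.024 and the split was 32 above and 35 below. Single estimates ran from -0.50 for Eef1akmt2 to 0.35 for Eif4g3. The 95% confidence interval lay within a 2-fold change either way for 62 of the 67 members (92.5%), as it did for 72.6% of all tested genes, and within a 1.5-fold change for 31 members (46.3%) against 27.2%. Intervals that reached past a 2-fold decrease were those of Eif2ak2, Eif3j2, Eef1akmt2, Eif2s3x and Eif2s3y, and those of Eif3j2 and Eif2s3y also reached or passed a 2-fold increase.

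**Figure D2:**
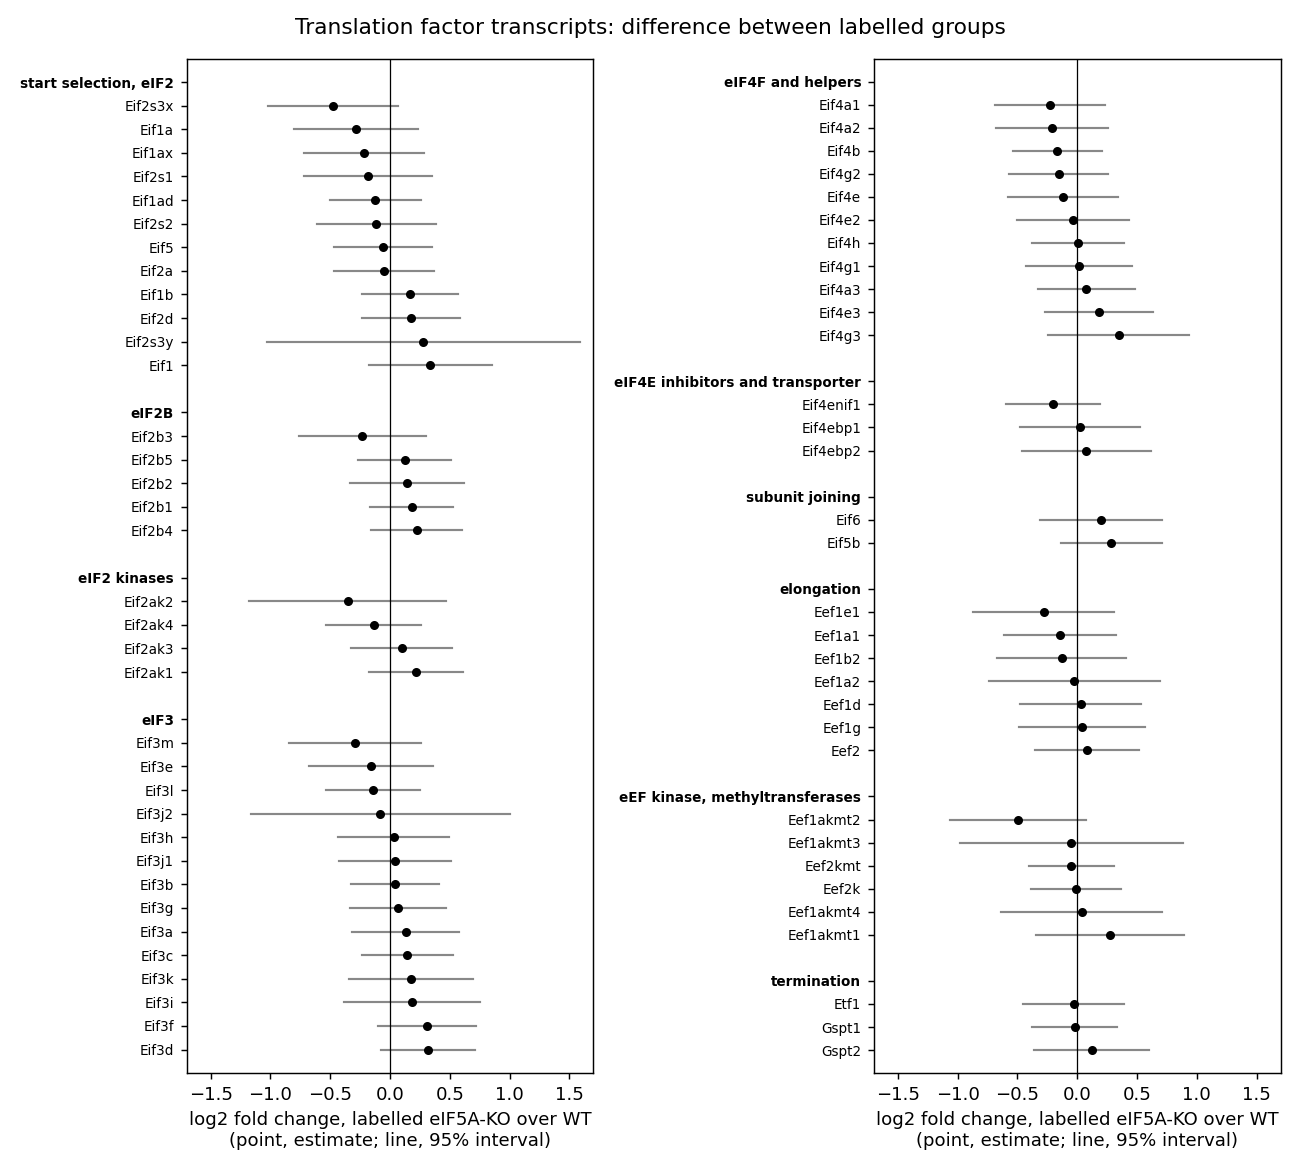
Log2 fold change of each of the 67 tested members, eIF5A-KO-labelled libraries over WT, as the edgeR estimate (point) with its 95% interval (line), grouped by role and ordered within it. Every interval crosses 0, and those of Eif2s3y and Eif3j2 are the widest.

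Complete separation of the groups was counted next. For 3 of the 67 members (4.48%) the ranges of the groups were apart, against 12.5% of all tested genes. Higher in every eIF5A-KO-labelled library were Eif2b1 and Eif3d, 2 members beside 5.68% of all tested genes, and lower was Eif4b, 1 member beside 6.83%. The difference between these shares was not tested. Members that are named with values outside the rule given under processing (Eif2b3, Eif2s2, Eif3a, Eif3d, Eif3f, Eif3i, Eif3m, Eif4g3, Eef1b2, Eef1d and Eef1e1, and those listed only by level) were chosen after their values were seen.

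The 12 genes grouped under start codon selection and the ternary complex include Eif1ad, Eif2a and Eif2d, which bear such names without encoding eIF1A or an eIF2 subunit. Of the 12, 4 had estimates above 0 and 8 below, with a median log2 fold change of -0.087, and none passed the test. Eif2s3x and Eif2s3y encode the gamma subunit of eIF2, which holds the GTP and the initiator tRNA, on the X and Y chromosomes (ENSMUSG00000035150, minus strand of chromosome X from 94188707 to 94212862, and ENSMUSG00000069049, plus strand of chromosome Y from 1010543 to 1028847, both mm10). They are shown because this pair carries the smallest p and the widest interval of the members. Their coding sequences are the same length, 1416 bases without the stop codon, and 86.3% identical, with 194 differences and no identical stretch longer than 34 bases. Bases 601 to 660 of each, counted from the A of the start codon in the GENCODE vM21 transcripts (GRCm38), differ at 14 positions, in capitals:
Eif2s3x: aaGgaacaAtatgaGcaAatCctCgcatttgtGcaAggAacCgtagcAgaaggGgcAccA
Eif2s3y: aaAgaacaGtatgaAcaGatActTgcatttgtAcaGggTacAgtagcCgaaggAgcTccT

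Eif2s3x had 156, 121 and 106 CPM in WT replicates 1 to 3 and 63.3, 109.7 and 103 CPM in eIF5A-KO-labelled replicates 1 to 3. The libraries of the groups overlapped, because eIF5A-KO-labelled replicate 2 lay above WT replicate 3, and eIF5A-KO-labelled replicate 1 was the lowest of the 6. Its log2 fold change was -0.47 (95% interval -1.02 to 0.069, unadjusted p = 0.0799, adjusted p = 0.809 in edgeR), the smallest p of the members. Without eIF5A-KO-labelled replicate 1 it was -0.26. A further transcript, of Gm2223, matches Eif2s3x over 1350 bases, and annotated copies held 2.00% to 2.41% as many counts as Eif2s3x itself.

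Eif2s3y had 14.9, 19.1 and 7.09 CPM in WT and 5.08, 12 and 32.8 CPM in the eIF5A-KO-labelled libraries, so that reads on the Y-linked gene were counted in all 6 libraries and varied more than 6-fold between them. Its log2 fold change was 0.28 (95% interval -1.03 to 1.58, adjusted p = 0.973 in edgeR), and it was -0.68 without eIF5A-KO-labelled replicate 3 and -0.03 without WT replicate 3. Relative to Eif2s3x on the FPKM scale, Eif2s3y stood at 0.0610 to 0.145 in WT and at 0.0735 to 0.291 in the eIF5A-KO-labelled libraries, with an exact two-sided permutation p of 0.6 for the log2 ratio (n = 3 each, smallest possible p 0.1).

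The X-inactivation transcript Xist and the Y-linked genes Ddx3y, Kdm5d and Uty were likewise counted in every library. Xist had 301, 256 and 326 CPM in WT and 192, 183 and 118 CPM in the eIF5A-KO-labelled libraries, with every WT library above every eIF5A-KO-labelled library (log2 fold change -0.84, unadjusted p = 0.00388, adjusted p = 0.398 in edgeR). Ddx3y had 13.4, 33.5 and 9.33 CPM in WT and 5.08, 14.8 and 33.3 CPM in the eIF5A-KO-labelled libraries. The lowest Ddx3y and Eif2s3y both stood in eIF5A-KO-labelled replicate 1, which was also the lowest for Eif2s3x, while Ddx3y and Eif2s3y were high together in WT replicate 2 and eIF5A-KO-labelled replicate 3. The part of the sex of the mice in the values of Eif2s3x and Eif2s3y was not tested.

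**Figure D3:**
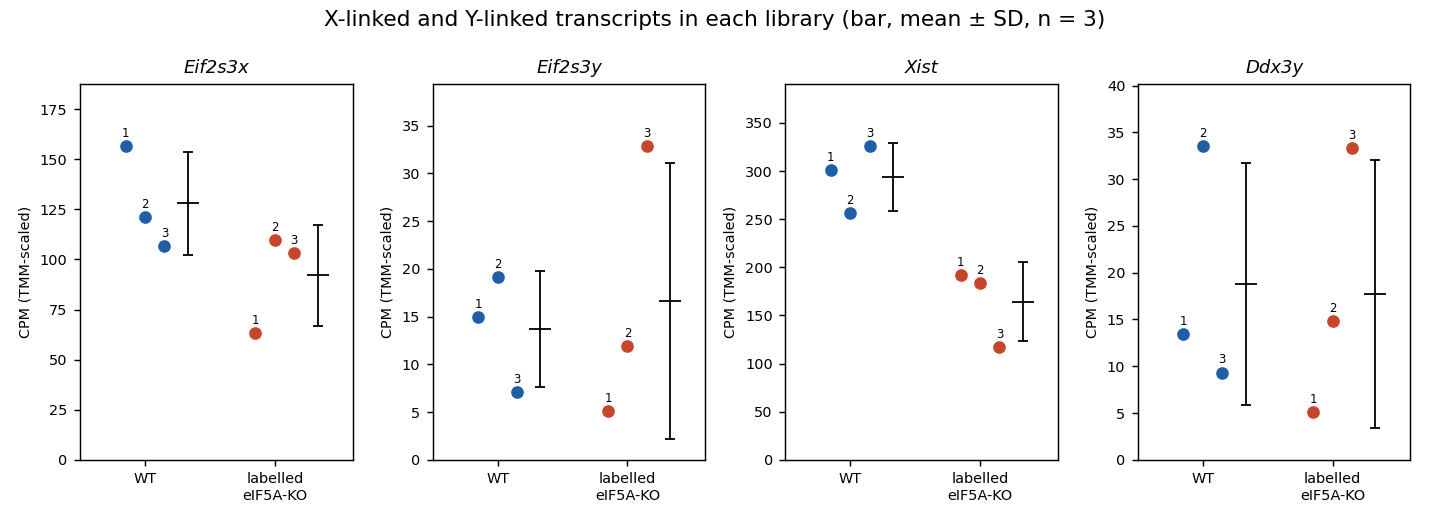
CPM of Eif2s3x, Eif2s3y, Xist and Ddx3y in each library, with a point for each replicate (numbered) and the mean ± SD (n = 3) beside it. Both Y-linked genes are detected in all 6 libraries and are highest in WT replicate 2 and eIF5A-KO-labelled replicate 3, and Xist is lower in every eIF5A-KO-labelled library than in any WT library.

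Eif1, the most abundant member of this role, had 666, 583 and 826 CPM in WT and 1112, 776 and 733 CPM in the eIF5A-KO-labelled libraries. The eIF5A-KO-labelled replicate 1 stood above the other 5 libraries, and replicates 2 and 3 lay within the WT range. The log2 fold change was 0.34 (standard error 0.23, adjusted p = 0.876 in edgeR), or 0.13 without eIF5A-KO-labelled replicate 1. Other genes with a matching stretch, Emd among them, held 7.91% to 13.1% as many counts as Eif1. Eif1b, a close relative at 53.7 FPKM against 369.8 for Eif1, had a log2 fold change of 0.16 (edgeR adjusted p = 0.936). Eif1a, which encodes the other scanning factor, had 253, 139 and 166 CPM in WT and 137, 155 and 165 CPM in the eIF5A-KO-labelled libraries, with WT replicate 1 the highest. Without that library its log2 fold change of -0.29 became 0.0070. Eif2s2, the beta subunit of eIF2, had a log2 fold change of -0.11 (edgeR adjusted p = 0.967), which turned to 0.07 without WT replicate 1, and was also above 0 without eIF5A-KO-labelled replicate 1. A transcript of Gm9892 matches Eif2s2 at 99.5% over 992 bases and held 12.1% to 14.5% as many counts as Eif2s2, so the split of reads between them is uncertain.

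eIF2B is the exchange factor that recharges eIF2 with GTP and is blocked when eIF2 is phosphorylated. Of its 5 subunit genes, 4 had estimates above 0 and Eif2b3 an estimate below 0, and none passed the test. Eif2b1 had 59.6, 51.8 and 55.9 CPM in WT and 65.6, 61.9 and 61.9 CPM in the eIF5A-KO-labelled libraries. Every eIF5A-KO-labelled library lay above every WT library, at 63.1 ± 2.17 against 55.7 ± 3.92 CPM (SD, n = 3 each), with a log2 fold change of 0.18 (95% interval -0.17 to 0.53, adjusted p = 0.913 in edgeR). Eif2b2 and Eif2b5, the subunits at the highest FPKM (49.9 and 47.6), had log2 fold changes of 0.14 and 0.12 (adjusted p = 0.952 and 0.949 in edgeR). That of Eif2b2 was -0.02 without eIF5A-KO-labelled replicate 1, and that of Eif2b5 ran from 0.017 to 0.24 with single libraries left out. Eif2b3 had 70.3, 36.6 and 49.8 CPM in WT and 42.8, 43.3 and 47.3 CPM in the eIF5A-KO-labelled libraries. WT replicate 1 was the highest, and the log2 fold change was -0.23 with all libraries and 0.05 without it.

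The kinases that phosphorylate eIF2 in response to heme shortage (Eif2ak1), double-stranded RNA (Eif2ak2), misfolded proteins in the endoplasmic reticulum (Eif2ak3) and amino acid shortage (Eif2ak4) had mean levels of 10.0, 8.34, 4.42 and 3.40 FPKM, and none of the 4 passed the test. Eif2ak2, also known as PKR, had 45.4, 51.0 and 48.5 CPM in WT and 15.8, 42.7 and 54.6 CPM in the eIF5A-KO-labelled libraries. The WT libraries were close together, whereas eIF5A-KO-labelled replicate 1 was the lowest of the 6 and replicate 3 the highest. Its log2 fold change was -0.36 (95% interval -1.18 to 0.47, adjusted p = 0.927 in edgeR) and 0.02 without eIF5A-KO-labelled replicate 1. Eif2ak3, also known as PERK, had 25.9 ± 5.22 CPM in WT and 27.8 ± 0.510 CPM in the eIF5A-KO-labelled libraries (SD, n = 3 each), and its log2 fold change of 0.10 was -0.02 without WT replicate 3. Eif2ak1 had 52.9 ± 7.96 CPM in WT and 61.5 ± 4.36 CPM in the eIF5A-KO-labelled libraries (log2 fold change 0.22, adjusted p = 0.910 in edgeR).

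eIF3 is the largest initiation factor, a scaffold that holds the small subunit and the other factors together. The median log2 fold change of its 14 subunit genes was 0.054, with 10 estimates above 0 and 4 below (Eif3e, Eif3j2, Eif3l and Eif3m), and none passed the test. Mean levels ran from 1.99 FPKM for Eif3j2 and 16.8 for Eif3j1, whose product binds the complex loosely, to 148 for Eif3c and 189 for Eif3h. The 2 Eif3j genes match at 99.4% over 2379 bases of their transcripts, so their reads cannot be told apart with certainty. Eif3b and Eif3c, scaffold subunits, varied little, with 491 ± 38.1 and 505 ± 12 CPM for Eif3b in WT and in the eIF5A-KO-labelled libraries, and 497 ± 49.7 and 549.6 ± 26.8 CPM for Eif3c (SD, n = 3 each). The log2 fold change of Eif3b was 0.042 and below 0 without WT replicate 2, and that of Eif3c was 0.15. Eif3h had 377, 245 and 291 CPM in WT and 293, 359 and 280.3 CPM in the eIF5A-KO-labelled libraries, and its log2 fold change of 0.031 was -0.10 without WT replicate 2 and -0.08 without eIF5A-KO-labelled replicate 2.

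Eif3d, whose product can itself bind the cap of some messages, had 194, 158 and 194 CPM in WT and 249, 229 and 202 CPM in the eIF5A-KO-labelled libraries (ENSMUSG00000016554, minus strand of chromosome 15 from 77958998 to 77970813). All 3 eIF5A-KO-labelled libraries lay above all 3 WT libraries, the nearest being eIF5A-KO-labelled replicate 3 and WT replicates 1 and 3. The log2 fold change was 0.32 (95% interval -0.072 to 0.71, unadjusted p = 0.0986, adjusted p = 0.815 in edgeR), and it ranged from 0.23 to 0.40 with single libraries left out. Eif3f had 299, 277 and 324 CPM in WT and 418, 392 and 306 CPM in the eIF5A-KO-labelled libraries, with eIF5A-KO-labelled replicates 1 and 2 above all others and replicate 3 within the WT range (log2 fold change 0.31, adjusted p = 0.847 in edgeR). Eif3m differed in the other direction, with 274, 137 and 191 CPM in WT and 152, 159 and 180.5 CPM in the eIF5A-KO-labelled libraries. WT replicate 1 was the highest and WT replicate 2 the lowest of the 6 libraries, and the log2 fold change of -0.29 was 0.0073 without the former and -0.50 without the latter. Eif3i, at 381, 205 and 262 CPM in WT and 328, 378 and 256 CPM in the eIF5A-KO-labelled libraries, had a log2 fold change of 0.18, of 0.47 without WT replicate 1 and of -0.00093 without WT replicate 2.

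eIF4F joins the cap-binding protein eIF4E, the scaffold eIF4G and the helicase eIF4A, which eIF4B and eIF4H stimulate. The 11 tested genes of this role also include relatives that act elsewhere, such as Eif4a3, a helicase of the exon junction complex, and Eif4e2, a cap-binding protein outside eIF4F. Of the 11, 5 had estimates above 0 and 6 below, with a median of -0.031, and none passed the test. Scaled by library size only, 3 lay above 0 and 8 below, with a median of -0.052. Eif4a1 (ENSMUSG00000059796, minus strand of chromosome 11 from 69666936 to 69672423, mm10) cannot be fully counted apart from the processed pseudogene Eif4a-ps4, which lies on chromosome 1 from 60703932 to 60705149. Over the 1218 coding bases of Eif4a1 the pseudogene differs at 1 position, shown here in capitals at the end of bases 475 to 534 of the coding sequence (GENCODE vM21):
Eif4a1: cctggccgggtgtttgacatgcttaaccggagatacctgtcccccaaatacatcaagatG
Eif4a-ps4: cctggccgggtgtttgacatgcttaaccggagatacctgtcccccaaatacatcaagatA
A read within the 684 bases of the longest identical stretch fits both genes. The pseudogene was given 17.4% to 20.9% as many counts as Eif4a1, with 4347, 4256 and 4084 counts in WT and 3279, 4064 and 4338 counts in the eIF5A-KO-labelled libraries. The level of Eif4a1 itself was 1614, 1093 and 1382 CPM in WT and 1105, 1153 and 1234 CPM in the eIF5A-KO-labelled libraries, with WT replicate 2 the lowest of the 6. Its log2 fold change was -0.23 (95% interval -0.68 to 0.23, adjusted p = 0.915 in edgeR), and -0.21 with the counts of the pseudogene added. It was -0.08 without WT replicate 1.

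The second helicase gene, Eif4a2, at 54.3 FPKM, had 329, 268 and 344 CPM in WT and 230.2, 239 and 343 CPM in the eIF5A-KO-labelled libraries (log2 fold change -0.21, adjusted p = 0.923 in edgeR), and the estimate ran from -0.42 without eIF5A-KO-labelled replicate 3 to -0.10 without eIF5A-KO-labelled replicate 1. The FPKM of Eif4a2 was 0.166 to 0.226 of that of Eif4a1 over the 6 libraries. The ranges of the ratio in the groups overlapped (exact two-sided permutation p = 1, n = 3 each, smallest possible p 0.1). Eif4b had 550.4, 567 and 539 CPM in WT and 448, 518 and 512 CPM in the eIF5A-KO-labelled libraries. Every eIF5A-KO-labelled library lay below every WT library, at 493 ± 39.0 against 552 ± 14.3 CPM (SD, n = 3 each), with a log2 fold change of -0.16 (95% interval -0.54 to 0.21, adjusted p = 0.926 in edgeR), which was -0.09 without eIF5A-KO-labelled replicate 1. Eif4g2, an eIF4G relative that lacks the eIF4E-binding part, had 1018 ± 21.5 CPM in WT and 914 ± 133 CPM in the eIF5A-KO-labelled libraries (SD, n = 3 each), with a log2 fold change of -0.16 (edgeR adjusted p = 0.943) that ran from -0.27 to -0.058 with single libraries left out. Eif4g3 had 64.0, 139 and 112 CPM in WT and 128, 123 and 149.5 CPM in the eIF5A-KO-labelled libraries. WT replicate 1 was far below the other 5 libraries, and the log2 fold change of 0.35 (95% interval -0.24 to 0.94) was 0.10 without it and 0.60 without WT replicate 2.

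Cap-binding eIF4E is held inactive by the eIF4E-binding proteins until the mTOR kinase phosphorylates them. Eif4e had 242, 154 and 189 CPM in WT and 156, 182 and 200.1 CPM in the eIF5A-KO-labelled libraries (log2 fold change -0.12, or 0.07 without WT replicate 1). Eif4ebp1, at 113 FPKM the most abundant of the inhibitors, had 298, 203 and 247 CPM in WT and 284, 286 and 190.1 CPM in the eIF5A-KO-labelled libraries. The groups had nearly the same range, the highest in WT replicate 1 and the lowest in eIF5A-KO-labelled replicate 3, and the log2 fold change of 0.025 (95% interval -0.47 to 0.52) lay below 0 without WT replicate 2 or without eIF5A-KO-labelled replicate 1 or 2. Eif4ebp2 had 88.4, 173 and 143 CPM in WT, where replicates 1 and 2 differed most, and 143, 152 and 133 CPM in the eIF5A-KO-labelled libraries (log2 fold change 0.078, or -0.14 without WT replicate 1). Per length, Eif4ebp1 stood at 2.60 to 4.97 times Eif4e and Eif4ebp2 at 0.380 to 1.17 times Eif4e. The differences in log2 ratio between the groups were 0.12 and 0.23 (exact two-sided permutation p = 0.7 and 0.8, n = 3 each). The transporter gene Eif4enif1 had 66.5 ± 5.42 CPM in WT and 57.9 ± 8.63 CPM in the eIF5A-KO-labelled libraries (SD, n = 3 each, log2 fold change -0.20, adjusted p = 0.914 in edgeR).

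**Figure D4:**
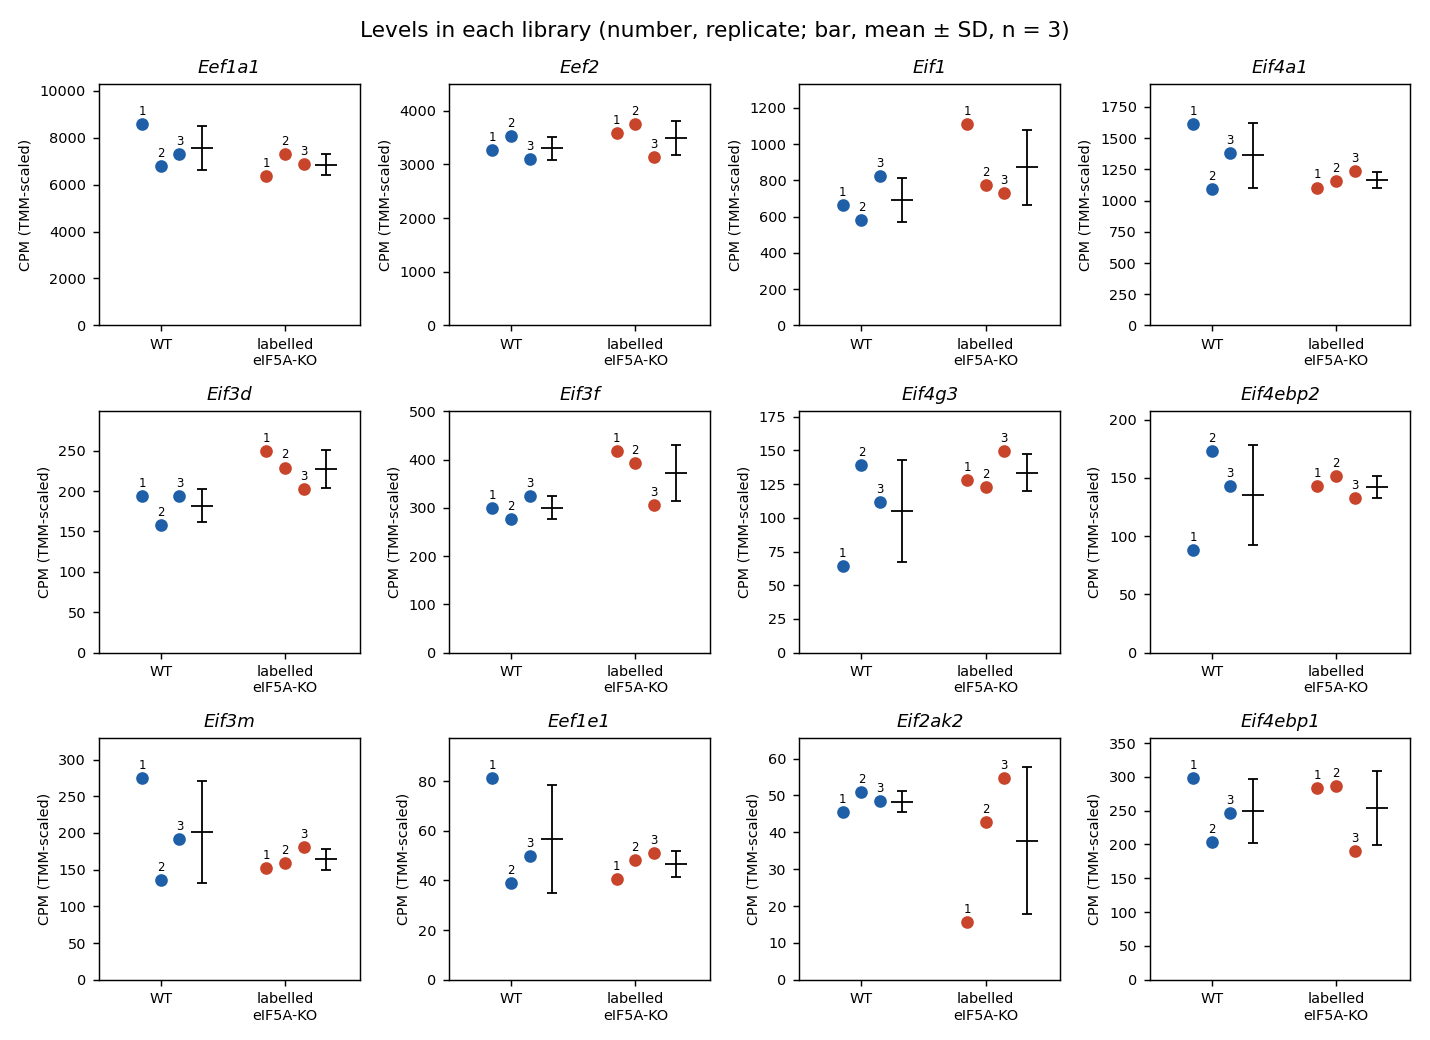
CPM of 12 members in each library, with a point for each replicate (numbered) and the mean ± SD (n = 3) beside it. Eif3d is the only panel in which the groups do not overlap, in the panels of Eif4g3, Eif4ebp2 and Eef1e1 WT replicate 1 lies apart from the other WT libraries, and in that of Eif3m WT replicates 1 and 2 lie on either side of replicate 3.

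The 2 subunit-joining factors had estimates above 0 and did not pass the test. Eif5b had 106, 137 and 125 CPM in WT and 127, 145 and 177 CPM in the eIF5A-KO-labelled libraries (log2 fold change 0.29, 95% interval -0.13 to 0.71, adjusted p = 0.872 in edgeR). The eIF5A-KO-labelled replicate 1 lay within the WT range, replicate 3 was the highest of the 6, and the estimate was 0.15 without that library. Eif6, which keeps the large subunit from joining too early, had 282, 188 and 232 CPM in WT and 325, 279 and 203 CPM in the eIF5A-KO-labelled libraries (log2 fold change 0.20, or 0.05 without eIF5A-KO-labelled replicate 1).

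Of the 7 genes grouped under elongation, the step in which eIF5A also acts, 3 had estimates above 0 and 4 below. The 4 include Eef1e1, which shares the name only and had the lowest estimate, -0.28. The median of the 7 was -0.022, and none passed the test. With limma-voom the median was 0.043 and the split 4 above and 3 below, and with limma on log2(FPKM + 1) the median was 0.038 with the same split. Eef1a1 (ENSMUSG00000037742, minus strand of chromosome 9 from 78478449 to 78489151) had 8581, 6791 and 7290.1 CPM in WT and 6367, 7287 and 6886 CPM in the eIF5A-KO-labelled libraries. WT replicate 1 was the highest and eIF5A-KO-labelled replicate 1 the lowest, and the other 4 lay between them. The log2 fold change was -0.14 (95% interval -0.61 to 0.33, adjusted p = 0.952 in edgeR) and -0.03 without WT replicate 1. Eef2 (ENSMUSG00000034994, plus strand of chromosome 10 from 81176631 to 81182498) had 3257, 3531 and 3106 CPM in WT and 3591, 3751 and 3136 CPM in the eIF5A-KO-labelled libraries, with a log2 fold change of 0.083 (95% interval -0.35 to 0.52, adjusted p = 0.974 in edgeR). For both genes the interval lies within a 2-fold change either way.

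Eef1a2, the form of eEF1A that mature skeletal muscle, heart and neurons use in place of Eef1a1, was low in these cultures, with 5.11, 8.96 and 3.90 CPM in WT and 6.30, 6.22 and 5.22 CPM in the eIF5A-KO-labelled libraries. Eef1a2 and Eef1a1 are shown because their products do the same step and their level per length differs most among the 7 pairs of related genes compared. Their coding sequences are 79.9% identical, and bases 643 to 702 of each differ at 22 positions, in capitals (GENCODE vM21):
Eef1a1: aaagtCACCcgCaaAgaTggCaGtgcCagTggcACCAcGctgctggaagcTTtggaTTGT
Eef1a2: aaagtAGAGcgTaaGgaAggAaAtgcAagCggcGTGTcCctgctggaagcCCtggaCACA
The FPKM of Eef1a2 was 0.000640 to 0.00158 of that of Eef1a1 in the 6 libraries, with the highest ratio in WT replicate 2 and the lowest in WT replicate 3. The log2 fold change of Eef1a2 was -0.022 (95% interval -0.73 to 0.69) and 0.39 without WT replicate 2, and its log2 ratio to Eef1a1 differed by 0.20 between the groups (exact two-sided permutation p = 0.7, n = 3 each).

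Eef1b2, Eef1d and Eef1g encode subunits of the eEF1 exchange complex, and for each the range of the WT libraries was wider than the difference between the groups. Eef1g had 1739, 1144 and 1315 CPM in WT and 1495, 1694 and 1135 CPM in the eIF5A-KO-labelled libraries, and its log2 fold change of 0.043 (95% interval -0.49 to 0.57) was -0.08 without WT replicate 2 and also -0.08 without eIF5A-KO-labelled replicate 2. A transcript of Gm4366 matches Eef1g at 99.6% over 1342 bases. Matching genes held 3.74% to 9.38% as many counts as Eef1g, so the split of reads between them is uncertain. Eef1b2 had 955, 511 and 718 CPM in WT and 656, 735 and 604 CPM in the eIF5A-KO-labelled libraries, and its log2 fold change of -0.13 was 0.12 without WT replicate 1. Eef1d had 418, 248 and 322 CPM in WT and 371, 358 and 279 CPM in the eIF5A-KO-labelled libraries, and its log2 fold change of 0.029 was 0.24 without WT replicate 1 and -0.14 without WT replicate 2. Eef1e1, which shares the name but encodes a component of the multi-synthetase complex, had 81.2, 39.0 and 49.9 CPM in WT and 40.7, 48.3 and 50.9 CPM in the eIF5A-KO-labelled libraries, and its log2 fold change of -0.28 was 0.08 without WT replicate 1. WT replicate 1 was the highest of the 6 libraries for all 4 of these genes, and WT replicate 2 was the lowest for Eef1b2, Eef1d and Eef1e1.

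Among the 6 genes of the eEF2 kinase and the methyltransferases that modify eEF1A and eEF2, none passed the test. Eef1akmt2 had 25.9, 13.0 and 19.1 CPM in WT and 12.2, 14.2 and 14.7 CPM in the eIF5A-KO-labelled libraries. WT replicates 1 and 3 lay above all 3 eIF5A-KO-labelled libraries and WT replicate 2 lay among them. Its log2 fold change was -0.50 (95% interval -1.06 to 0.074, unadjusted p = 0.0808, adjusted p = 0.809 in edgeR), -0.22 without WT replicate 1 and -0.71 without WT replicate 2. Eef1akmt1 had a log2 fold change of 0.27 (95% interval -0.35 to 0.89), which ran from 0.03 without WT replicate 2 to 0.50 without WT replicate 1. Eef2kmt was steady, at 27.5 ± 0.613 CPM in WT and 26.6 ± 1.62 CPM in the eIF5A-KO-labelled libraries (SD, n = 3 each, log2 fold change -0.048).

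Release factor genes differed little between the groups, and none of the 3 passed the test. Etf1, which recognises the stop codons, had 383, 277 and 324 CPM in WT and 285, 324 and 355 CPM in the eIF5A-KO-labelled libraries (log2 fold change -0.030, 95% interval -0.45 to 0.39), and its estimate was 0.10 without WT replicate 1 and 0.06 without eIF5A-KO-labelled replicate 1. Gspt1 had 188 ± 10.5 CPM in WT and 185 ± 14.1 CPM in the eIF5A-KO-labelled libraries (SD, n = 3 each), with a log2 fold change of -0.021 (95% interval -0.38 to 0.33) that was above 0, by at most 0.034, when WT replicate 1 or eIF5A-KO-labelled replicate 1 or 2 was left out. Gspt2, at 1.81 FPKM, reached 0.0478 to 0.0679 of the FPKM of Gspt1. Its log2 fold change was 0.12 (95% interval -0.36 to 0.60), and the ratio did not separate the groups (exact two-sided permutation p = 0.7, n = 3 each). Over the 7 ratios of related genes the Benjamini-Hochberg adjusted permutation p ranged from 0.933 to 1. The smallest possible p of each test was 0.1 before adjustment, so none could pass 0.05.

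Variation between WT libraries exceeded the difference between the groups for most members. The range of the 3 WT libraries had a median of 0.50 on the log2 scale. The absolute difference between the group means of log2(CPM + 0.1) had a median of 0.13. For 61 of the 67 members (91.0%) the group difference was smaller than the WT range, as for 86.2% of all tested genes. WT replicate 1 was the highest library for 28 of the 67 members (41.8%), against 27.4% of all tested genes. WT replicate 2 was the lowest for 33 members (49.3%), against 22.2% of all tested genes. The median deviation from the mean of the 6 libraries was 0.17 in WT replicate 1 and -0.22 in WT replicate 2 for the members, and 0.01 in each of these libraries for all tested genes.

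These deviations went with the length of the coding sequence. Members of 339 to 915 coding bases (n = 22) had a median log2 deviation of 0.26 in WT replicate 1 and -0.29 in WT replicate 2. Those of 945 to 1545 bases (n = 22) had medians of 0.25 and -0.27, and those of 1644 to 5286 bases (n = 23) had medians of -0.03 and -0.04. Across the 67 members Spearman's rho between coding length and deviation was -0.46 in WT replicate 1, 0.52 in WT replicate 2 and 0.38 in eIF5A-KO-labelled replicate 3, and from -0.15 to -0.069 elsewhere. Over the 13157 tested genes with a coding length, rho in the first 3 of these was -0.45, 0.54 and 0.32. In WT replicate 3 it was 0.072 over all these genes against -0.15 over the members, and in eIF5A-KO-labelled replicates 1 and 2 it was -0.22 and -0.11 against -0.10 and -0.069. These are correlations across genes of the same libraries, given as a description, since genes are not independent replicates. Coding length and the edgeR log2 fold change had a rho of 0.087 over the members and of -0.034 over all these genes. At the long end, Eif3a in WT replicate 1 had 354 CPM against 429 to 547 in the other 5 libraries, and its log2 fold change of 0.13 was -0.0027 without that library.

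**Figure D5:**
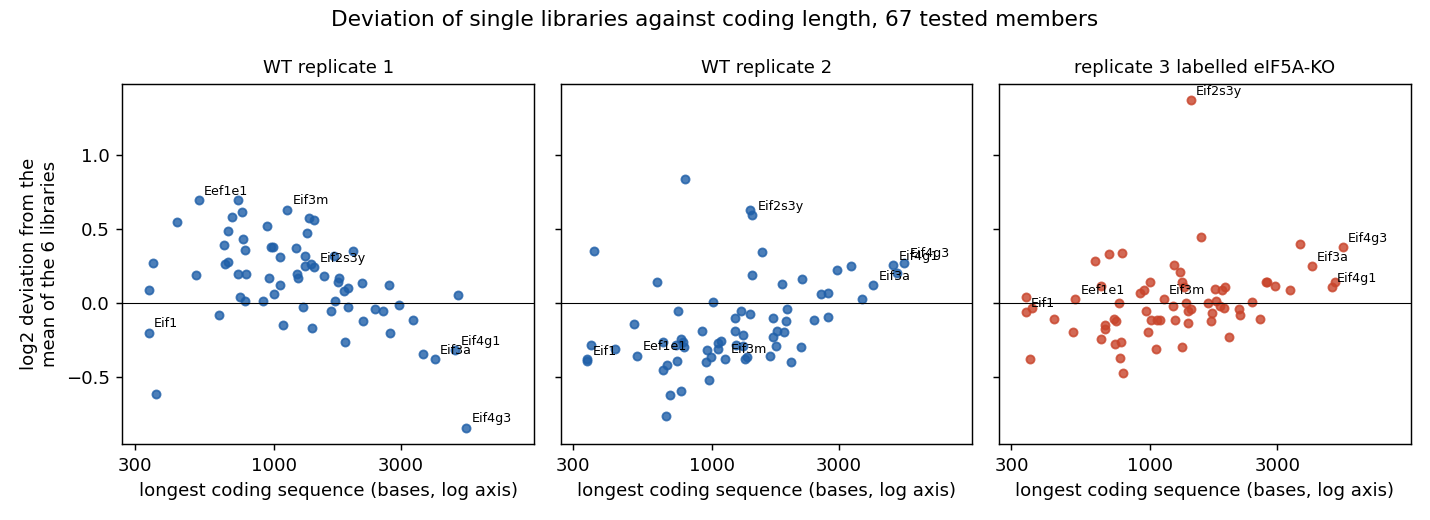
Log2 deviation of a library from the mean of the 6 libraries against the longest coding sequence of the gene in bases (log axis), with a point for each of the 67 tested members, in WT replicate 1, WT replicate 2 and eIF5A-KO-labelled replicate 3. Members with short coding sequences lie mostly above 0 in WT replicate 1 and below 0 in WT replicate 2, and rho is -0.46, 0.52 and 0.38 in the 3 panels.

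Other measures also set these libraries apart. The mitochondrial share of the counts was 5.75% in WT replicate 1 and 2.11% to 3.50% in the others, and the 10 most abundant genes took 8.54% there and 5.01% to 6.65% elsewhere. Summed myogenic markers were highest in WT replicate 2, at 1803 CPM against 627 to 1254 CPM in the others. The part of any of these in the levels of the translation factors was not tested.

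Genes of the same steps whose names fall outside the rule were read in the same fit. Of 25 such partners, among them the poly(A)-binding protein gene Pabpc1, the eIF4A inhibitor Pdcd4, the recycling factor Abce1 and the mTOR pathway genes Mtor, Rptor and Rps6kb1, none passed the adjusted threshold and none had an unadjusted p under 0.05 in edgeR. Their median log2 fold change was 0.025, with 13 estimates above and 12 below 0. For 4 of the 25 partners (16%) the libraries of each group were fully apart, against 12.5% of all tested genes. These were Pabpc1, Ppp1r15a, whose product helps to dephosphorylate eIF2, and Pelo, a ribosome rescue factor, all higher in the eIF5A-KO-labelled libraries, and Paip2b, which was lower. For Ppp1r15a the nearest libraries were almost level, at 196.5 CPM in WT replicate 3 and 196.7 CPM in eIF5A-KO-labelled replicate 2. The smallest p belonged to Paip2b, an inhibitor of poly(A)-binding protein, at 50.7, 42.2 and 38.7 CPM in WT and 27.5, 35.1 and 35.8 CPM in the eIF5A-KO-labelled libraries (log2 fold change -0.42, unadjusted p = 0.0515, adjusted p = 0.738). These 4 were named after their values were seen.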

How the data were processed

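Libraries were made from TRIzol-extracted total RNA (NEBNext Ultra). The authors mapped their reads to mm10 with HISAT (named, with the build, in the submitters' processing notes) and deposited the count of reads per gene, not normalized. A second deposited table holds FPKM, which the authors scaled to gene length and between libraries. The HISAT version and the counting rule for reads that fit several genes are not given in the sources used here, and the kit does not mark strand, so that reads of the 40 members that overlap another annotated gene may be shared.

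Counts were tested with edgeR 4.0.16 in R 4.3.3 (filterByExpr, which asks for about 10 counts per library in the smaller group, TMM factors, quasi-likelihood test, prior count 2, no covariate, Benjamini-Hochberg adjustment over 14679 genes, threshold 0.05). Intervals are at 95%. The members, roles and gene lists were chosen with earlier results of these data known. Genes named by rule were members with an unadjusted p under 0.05 (there were 0), the 3 of each role with the highest mean FPKM, and the genes of 7 pairs, whose log2 count ratios (pseudocount 0.5) were compared by exact permutation with scipy 1.17.1. Deviations used log2(CPM + 0.1). Coordinates of 66 members equalled GENCODE vM21. Transcripts of other genes that match a member over at least 200 bases at 90% identity were searched with blastn 2.17.0. At least 1 was found for 33 of the 69 members. Such a match is not always a copy, as with the 213 bases of Qsox1 that match Eef1akmt3 at 91.1%. The scripts were tested on simulated data with 200 changed genes. Alternatives were DESeq2 1.42.0 or its size factors, library size alone, other filters, limma 3.58.1 on counts (voom) or on log2(FPKM + 1) or log2(FPKM + 0.1), a replicate block, and each library left out. Adding the counts of Eif4a-ps4 to Eif4a1 was chosen after seeing the data.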

Additional observations from a re-analysis of the deposited data

How the results depend on the processing

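No member reached an adjusted p under 0.05 under any alternative, and the lowest adjusted p of a named member was 0.42. Over the whole table that threshold was passed by 88 genes with DESeq2, 249 without a filter, 24 with the replicate block and 56 without WT replicate 1, against 3 as reported and 0 under the other alternatives. Without a filter 1703 genes (6.32%) had an unadjusted p under 0.05, against 992 (6.76%). Leaving out a library gave 1530 (10.2%) without WT replicate 1, 1318 (8.82%) without WT replicate 2, 1072 (7.12%) without eIF5A-KO-labelled replicate 3 and 585 (3.88%) without eIF5A-KO-labelled replicate 1. The count of members with an unadjusted p under 0.05 was 0 higher and 0 lower, but with no filter 2 were lower (Eif2s3x and Eef1akmt2). Leaving out a library moved it between 0 and 1 higher (Eif3i without WT replicate 1, Eif4g3 without WT replicate 2, Eif3f without eIF5A-KO-labelled replicate 3) and between 0 and 2 lower (Eif3m and Eef1akmt2 without WT replicate 2), so at most 3 of the 67 members in a single fit. The members' median log2 fold change ran from -0.060 without WT replicate 2 to 0.074 without WT replicate 1. Replicate numbers did not pair the libraries, since same-numbered deviations correlated at 0.084, -0.16 and 0.11 and not every library correlated best with its own number. With the replicate block the median was 0.017, Eef1a2 was at 0.054 and Eif2s3y at -0.054, both opposite in sign to the fit without the block. Eef1a2 was also above 0 with limma-voom (0.048), limma on log2(FPKM + 1) (0.038) and limma on log2(FPKM + 0.1) (0.067), and Eif4ebp1 was at -0.0016 with library size alone. By role, the median of the eIF4E inhibitors and transporter turned to -0.0016 with library size alone, and that of the elongation factor kinase and methyltransferases from -0.029 to 0.010 with limma-voom. In all, 636 of 676 values of 45 named members kept their direction under the alternatives.

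Several signs turned when a library was left out. Log2 fold changes then ranged over -0.25 to 0.39 for Eef1a2, -0.082 to 0.24 for Eef1g, -0.46 to 0.0070 for Eif1a, -0.72 to 0.020 for Eif2ak2, -0.017 to 0.27 for Eif2ak3, -0.023 to 0.31 for Eif2b2, -0.68 to 0.71 for Eif2s3y and -0.0046 to 0.11 for Eif3b. They ranged over -0.10 to 0.22 for Eif3h, -0.26 to 0.074 for Eif4e, -0.10 to 0.20 for Eif4ebp1, -0.14 to 0.30 for Eif4ebp2, -0.14 to 0.10 for Etf1, -0.080 to 0.034 for Gspt1, -0.50 to 0.0073 for Eif3m and -0.49 to 0.076 for Eef1e1. The rest ranged over -0.0027 to 0.22 for Eif3a, -0.43 to 0.049 for Eif2b3, -0.00093 to 0.47 for Eif3i, -0.33 to 0.12 for Eef1b2, -0.29 to 0.068 for Eif2s2 and -0.14 to 0.24 for Eef1d. Differences in log2 ratio ranged over -0.040 to 0.61 for Eef1a2 to Eef1a1, -0.16 to 0.055 for Eif4a2 to Eif4a1, -0.0063 to 0.25 for Gspt2 to Gspt1, -0.24 to 0.010 for Eif1b to Eif1, -0.072 to 0.39 for Eif4ebp1 to Eif4e, -0.21 to 0.60 for Eif4ebp2 to Eif4e and -0.10 to 0.89 for Eif2s3y to Eif2s3x. Without a change of sign, leaving out a library moved the estimate by over 1.5 times for 20 further named members, whose values ranged over -0.21 to -0.033 for Eef1a1, 0.027 to 0.50 for Eef1akmt1, -0.71 to -0.22 for Eef1akmt2, 0.038 to 0.16 for Eef2, -0.083 to -0.0021 for Eef2kmt, 0.13 to 0.49 for Eif1, 0.033 to 0.26 for Eif1b, 0.15 to 0.35 for Eif2ak1, 0.017 to 0.24 for Eif2b5, -0.61 to -0.26 for Eif2s3x, 0.090 to 0.23 for Eif3c, -0.36 to -0.081 for Eif4a1, -0.42 to -0.10 for Eif4a2, -0.19 to -0.091 for Eif4b, -0.31 to -0.093 for Eif4enif1, -0.27 to -0.058 for Eif4g2, 0.15 to 0.40 for Eif5b, 0.050 to 0.37 for Eif6, 0.026 to 0.18 for Gspt2 and 0.10 to 0.60 for Eif4g3. The cause was not tested. With 3 libraries per group, a difference smaller than the intervals given cannot be seen in a single member, and counts of Eif4ebp3 and Eif4e1b are too few for any comparison.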
